A study of Homo sapiens with 22 samples.

Results

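The regions described here are 783 intergenic enhancer-class regions of H3R2me2a, the asymmetric dimethylation of arginine 2 on histone H3, in NT2/D1 cells. They were chosen by their measured tag counts. A region was kept when it belonged to the list named cluster III and to the enhancer list, when the authors classed it as intergenic, and when its tagcount was at least 0.25 of its MACS tags. Regions on chromosome 12 starting below 36 Mb were left out by the same rule. The 783 regions made up 8.88% of the 8819 regions in the 3 clusters, 12% of the 6519 cluster III regions and 17.1% of the 4583 enhancer-list regions. The running index of the enhancer list skips 8 numbers and that of the promoter list 16, so counts and statements on single genes hold for the regions listed. NT2/D1 is a pluripotent human embryonal carcinoma line that forms neurons when it is treated with all-trans retinoic acid (ATRA). Of the 22 samples of the series, 2 carried region lists, both from CRISPR control cells immunoprecipitated for H3R2me2a. One library came from control cells given 1 µM ATRA for 3 days, and the other from control cells without ATRA. Cluster III and the promoter and enhancer lists were deposited with the ATRA library, and clusters I and II with the library without ATRA.

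H3R2me2a is placed mainly by the arginine methyltransferase PRMT6. At promoters the mark is known to hinder trimethylation of the neighbouring lysine 4 of histone H3, because the methyltransferase complexes bind poorly to a tail methylated at arginine 2. Enhancers are stretches of DNA, often far from genes, that carry monomethylated lysine 4 and, when active, acetylated lysine 27. ATRA acts through heterodimers of retinoic acid and retinoid X receptors, which bind many such distal sites.

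A pair of whole-number counts describes each region. The MACS tags are the tags that the peak caller counted in the region, and cluster III was deposited with the ATRA library. No label or header names the library behind tagcount. In cluster I, whose 202 regions were deposited with the library without ATRA, tagcount exceeded the MACS tags by 0 to 8 (median 3). Sequencing depth is unknown and neither count was scaled, so a ratio of 1 does not mean equal enrichment in the libraries. There was 1 library per condition, so no value has a replicate error and no p-value is given. Intervals in brackets are 95% intervals. Those of tag counts and ratios cover counting error of tags only. Those of shares and medians treat the regions of a set as independent draws, although many regions lie near each other, so they may be too narrow. Regions of 1 library are not replicates. All region coordinates are on hg19 as the authors gave them.

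The sequences of the intergenic regions themselves were not analysed here. For 59 genes, after leaving out names that occur on more than 1 chromosome, the gene nearest to an intergenic member was also nearest to a promoter-class H3R2me2a region, and 73 members (9.32%, 7.38 to 11.6) lay next to such a gene. In the sets compared below, this share was 7.05% (4.70 to 10.1) of intergenic cluster III regions of lower ratio. It was 14.6% (12.5 to 17.0) of intronic cluster III regions and 7.24% (3.67 to 12.6) of intergenic cluster II regions, so it does not set the members apart. In 12 of these genes the promoter-class region lay within 250 bp of a start at which GENCODE and RefSeq agree. The 3 of them whose members had most MACS tags are shown, because H3R2me2a was deposited both at the promoter and at a distal member of the same gene. CGN encodes cingulin of tight junctions, RAD23B a DNA repair and proteasome shuttle factor, and EIF1B a translation initiation factor. Each sequence is the RefSeq window from 250 bases before to 50 bases after the start on GRCh38.p14, read 5′ to 3′. Capitals mark matches, on either strand, to the GC box GGGCGG, the CCAAT box, the TATA motif TATAAA or the retinoic acid receptor half-site AGGTCA.
CGN, chr1:151511137-151511436, plus strand: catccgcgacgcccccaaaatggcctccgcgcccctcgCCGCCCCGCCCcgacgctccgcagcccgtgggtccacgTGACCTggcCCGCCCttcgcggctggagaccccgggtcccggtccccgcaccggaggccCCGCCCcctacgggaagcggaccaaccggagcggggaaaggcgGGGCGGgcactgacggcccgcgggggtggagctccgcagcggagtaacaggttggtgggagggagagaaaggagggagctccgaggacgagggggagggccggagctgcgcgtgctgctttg
RAD23B, chr9:107283029-107283328, plus strand: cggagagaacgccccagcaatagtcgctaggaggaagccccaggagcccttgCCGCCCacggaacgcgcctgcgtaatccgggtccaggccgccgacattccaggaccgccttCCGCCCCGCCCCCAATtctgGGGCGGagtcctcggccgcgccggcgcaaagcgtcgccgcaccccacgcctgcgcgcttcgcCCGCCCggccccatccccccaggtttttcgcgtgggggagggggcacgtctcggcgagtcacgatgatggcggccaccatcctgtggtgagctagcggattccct
EIF1B, chr3:40309457-40309756, plus strand: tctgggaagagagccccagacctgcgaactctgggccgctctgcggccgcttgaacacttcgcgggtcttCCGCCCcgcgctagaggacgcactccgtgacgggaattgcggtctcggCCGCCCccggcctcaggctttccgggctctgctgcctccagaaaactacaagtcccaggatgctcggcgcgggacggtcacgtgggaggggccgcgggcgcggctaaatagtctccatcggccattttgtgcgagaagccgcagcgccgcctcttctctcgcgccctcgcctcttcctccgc
All 3 windows were rich in CG, with 37, 37 and 35 CG dinucleotides and a GC content of 75.3%, 71% and 67.7%, against medians of 14 CG and 58.3% over 27305 RefSeq promoter windows. They held 5, 5 and 2 GC boxes, a motif present in 44.6% of all windows. The CGN window held 1 AGGTCA match (13.9% of all windows) and the RAD23B window 1 CCAAT match (35.7%), which directly follows a GC box. In the CGN and RAD23B windows a pair of the GC boxes share 1 base. TATAAA (12% of all windows) was not found in these letters. A match is a description of letters and not a bound site.

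At CGN, the promoter-class region, 246 bp from the start, had 70 MACS tags and a tagcount of 46. The intergenic member, 15526 bp upstream, had more MACS tags (102) and a lower tagcount (33). RAD23B carried a pair of promoter-class regions with 55 and 40 MACS tags and tagcounts of 34 and 13. Its member, 39103 bp upstream, had 65 MACS tags and a tagcount of 21. At EIF1B the promoter-class region belonged to cluster II, the list deposited with the library without ATRA that has no MACS tags, and had a tagcount of 61, while its member 16784 bp upstream had 59 MACS tags and a tagcount of 22.

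Reaching a ratio of 0.25 was common in cluster III. Of all 6519 cluster III regions 83.0% did so, as did 71.8% of its 3811 enhancer-class regions. Among the 1166 intergenic enhancer-class regions outside the short arm of chromosome 12 the 783 members were 67.2%. On the short arm left out by the rule, 68 of 69 such regions (98.6%, 92.2 to 100) had a ratio of 0.25 or more. These shares are set by the rule, and nothing is read from them about the members.

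The members were weak to intermediate regions, which is partly set by the rule, since MACS tags are the divisor of the ratio. MACS tags ran from 27 to 224 with a median of 46, and the middle of the distribution lay between 37 and 60. Intronic cluster III regions of the same ratio had a median of 45 and quartiles of 37 and 60, so this does not set the members apart. Tagcount ran from 8 to 192 with a median of 22 and quartiles of 16 and 31.5. Per kilobase of region the medians were 94.4 MACS tags and 44.4 tagcount tags. Of the members, 268 (34.2%) had fewer than 40 MACS tags and 38 (4.85%) had 100 or more, and 304 (38.8%) had a tagcount below 20. The ratio had a median of 0.444 and quartiles of 0.339 and 0.610, and ran up to 1.32. The word moderate therefore covers the bulk of the members and not all of them. Of the members, 23 (2.94%, 1.87 to 4.38) had a ratio of 1 or more, against 1.64% of all cluster III regions. All 107 such cluster III regions lay among the 5414 with a ratio of 0.25 or more, the limit that every member met by rule. The gap between these shares is thus partly set by the rule, and nothing is read from it.

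With counts of this size the ratio of 1 region is known only roughly. For 412 members (52.6%, 49.1 to 56.2) the whole 95% interval of the ratio lay above 0.25. For the other 371 the interval spanned the limit. Of the 5414 cluster III regions with a ratio of 0.25 or more, 3802 had an interval wholly above it. Among the 383 intergenic cluster III regions of lower ratio, 107 (27.9%) had an interval wholly below 0.25. The division at 0.25 thus runs through a continuous cloud of regions. Just inside it lay regions near TNKS1BP1, a tankyrase-binding protein (52 MACS tags, tagcount 13), the pseudogenes MRPS6P4 (92 and 23), RPL35P9 (68 and 17) and RP11-883G10.1 (40 and 10), and TBX5, a T-box factor of heart and forelimb (60 and 15), all at a ratio of 0.25. Just outside it lay a region near a long non-coding RNA gene on chromosome 2 (133 and 33, ratio 0.248). It was followed by regions near PRDM1 (97 and 24, 0.247), RPS27P20 (171 and 42, 0.246), RP11-447M4.1 (110 and 27, 0.245) and MIR552 (49 and 12, 0.245). PRDM1 encodes a transcriptional repressor that acts in germ cell and immune development.

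**Figure D1:**
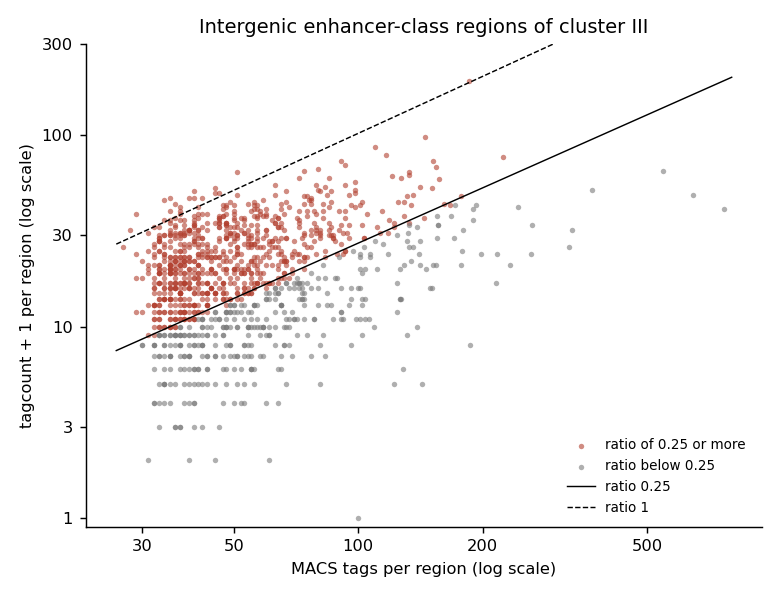
Each point is 1 of the 1166 intergenic enhancer-class regions of cluster III outside the short arm of chromosome 12, with MACS tags on the horizontal axis and tagcount plus 1 on the vertical axis, both on log scales. The 783 regions on or above the solid line (ratio 0.25) are described here, and they form 1 cloud with the 383 regions below it.

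The strongest members lay next to genes of unrelated kinds. The region with most MACS tags, 224 (Poisson interval 196 to 255), lay 13910 bp upstream of ACSF3, which encodes a mitochondrial malonyl-CoA synthetase (chr16:89140363-89141600). Its tagcount was 76 (59.9 to 95.1), and its ratio was 0.339. The region 43715 bp upstream of FGF3, a fibroblast growth factor of inner ear development, had 167 MACS tags (143 to 194) and a tagcount of 42 (30.3 to 56.8), and so lay at the limit with a ratio of 0.251. Both were among the members with fewer tags in the tagcount column than the 0.444 median ratio would give.
Non-coding neighbours filled most of the remaining places among the 15 members with most MACS tags. Long non-coding RNA genes were RP11-96L7.2 (177 MACS tags, tagcount 47), C7orf65 (161 and 43), RP11-147G16.1 (151 and 52), CTD-2227E11.1 (144 and 36), RP11-569G13.2 (141 and 53) and RP11-443B7.3 (133 and 63). Pseudogenes were KB-1183D5.9 (157 and 58), COX6B1P7 (154 and 67), ATP6V0E1P4 (152 and 72), RP11-654C22.1 (136 and 48) and FTLP18 (134 and 42). The remaining places among the 15 were held by regions on unplaced contigs near U1 (145 and 97) and CT978678.1 (185 and 192). In all, 5 members lay on unplaced contigs, where copies of a sequence can share reads, so their counts are uncertain.

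By tagcount, the region near CT978678.1 came first with 192 (166 to 221). Among placed regions, the highest tagcount was 86, in a region 94501 bp from a start of SHOX, a homeobox gene of skeletal growth in the pseudoautosomal part of the X chromosome, where 110 MACS tags were counted (chrX:685474-686206). It was followed by a region near the pseudogene AC093106.7 beside PODXL with 78, and by the ACSF3 region with 76. A region near SLC35F6, a solute carrier family member, had 69 (93 MACS tags), and the small RNA pseudogene RN7SL104P had 66 (80 MACS tags). These high-tagcount regions were mostly also wide: SLC35F6 had 1123 bp and ACSF3 1238 bp, against a median of 486 bp (475 to 499) over all members.

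The highest ratios were 1.32 near COX6B1P7 (34 MACS tags, tagcount 45), 1.31 near AC129778.7 (35 and 46) and MRPL45P1 (29 and 38), 1.25 near B3GNT7, an N-acetylglucosaminyltransferase (40 and 50), and 1.24 near the potassium channel gene KCNF1 (51 and 63). Next came RP11-372M18.2 at 1.19, the transporter gene FLVCR1 at 1.18, the potassium channel gene KCNK1 at 1.16, the ubiquitin ligase gene RNF187 at 1.15 and AC099796.1 at 1.11. Each of these 10 intervals reached below 1, for example 0.829 to 2.13 near COX6B1P7 and 0.840 to 1.82 near KCNF1. At this depth none of the 10 could be told apart from a ratio of 1. The same pseudogene, COX6B1P7, had its second member on the other side with 154 MACS tags, a tagcount of 67 and a ratio of 0.435 (0.322 to 0.583). The first member was picked as the highest ratio of all, which its interval does not allow for. Nothing is therefore read from the gap between the intervals of this pair.

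The members were next compared with 3 other sets of regions in measures that the ratio rule did not use: 383 intergenic enhancer-class cluster III regions of lower ratio, 1004 intronic enhancer-class cluster III regions with a ratio of 0.25 or more, and 152 intergenic enhancer-class cluster II regions, all outside the short arm of chromosome 12. Members lay closer to genes than the intergenic regions of lower ratio. The median distance to the nearest transcript start, in the authors' own column, was 21515 bp (19551 to 23195) for members, 32554 bp (28204 to 35911) for regions of lower ratio, 10470.5 bp (9484 to 11916) for intronic regions and 14812 bp (12417 to 18745) for cluster II regions. Of the members 19.3% (16.6 to 22.2) lay within 10 kb of a start, against 12.5% (9.39 to 16.3) of regions of lower ratio. Over 50 kb from a start lay 18.5% (15.9 to 21.4) of the members and 30.8% (26.2 to 35.7) of the regions of lower ratio. The intergenic class itself begins beyond 5 kb upstream of a start, which bounds these distances from below on that side. The shortest distances among members were 5134 bp upstream and 5244 bp downstream. Upstream of their nearest start lay 52.7% (49.2 to 56.3) of the members, an interval that includes an even split.

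The members nearest to a start lay beside the pseudogene CTC-250I14.1 (5134 bp upstream, 33 MACS tags, tagcount 32) and beside EVX1, a homeobox gene next to the HOXA cluster (5244 bp downstream, 36 and 9). Both were weak. Next were long non-coding RNA genes, RP5-1070A16.1 (35 and 22), RP11-579D7.4 (36 and 15) and RP11-346C20.3 (31 and 18). The farthest member lay 322632 bp from RP11-281P11.1, a pseudogene (32 and 25), followed by members near the 5S ribosomal RNA pseudogene RNA5SP142 (253492 bp, 51 and 14), EXTL2P1 (242342 bp, 66 and 31), RP11-147G16.1 (225015 bp, 151 and 52) and RP11-476B1.1 (212624 bp, 37 and 22).

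Members also lay closer to promoter-class H3R2me2a regions than the regions of lower ratio did, but not closer than the intronic or cluster II sets. The median distance to the nearest one was 197562 bp (172386 to 224699) for members, against 406077 bp (338392 to 476345) for regions of lower ratio. Within 50 kb, 15.7% (13.2 to 18.4) of members had a promoter-class region and 17.5% (14.9 to 20.3) a cluster II region, against 8.09% (5.57 to 11.3) and 8.88% (6.23 to 12.2) of regions of lower ratio. Another cluster III region lay within 50 kb of 55.6% of members (52.0 to 59.1) and of 42.8% (37.8 to 47.9) of regions of lower ratio, and cluster I regions were rare beside both (3.32% and 1.04%). No region of any cluster lay within 50 kb of 40.7% of members (37.3 to 44.3), against 54.8% (49.7 to 59.9) of regions of lower ratio. The intronic set gave close values in these neighbour measures: 19.4% had a promoter-class region, 15.2% a cluster II region and 56.9% another cluster III region within 50 kb. Width hardly separated the sets, with medians of 486 bp for members, 513 bp (492 to 533) for regions of lower ratio, 487 bp (479 to 495) for intronic regions and 476 bp (453 to 497) for cluster II regions. The summit lay near the middle of the members, at a median of 0.514 of the width.

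**Figure D2:**
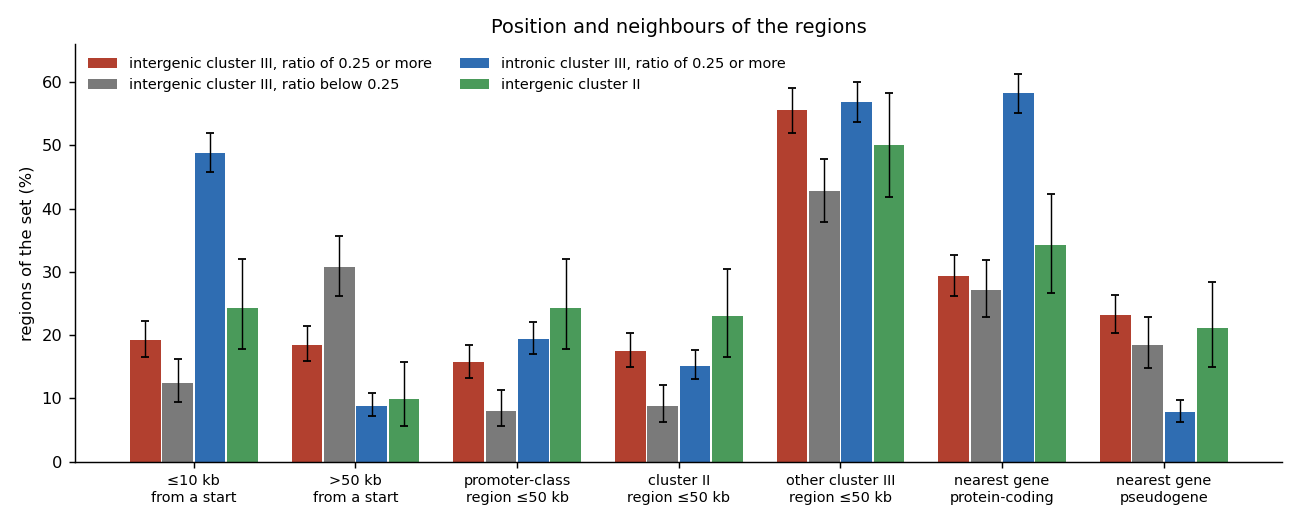
Bars give the percentage of each set of regions with the position or neighbour named below them, and whiskers give exact 95% intervals that treat regions as independent draws. The 783 intergenic cluster III regions with a ratio of 0.25 or more (left bar of each group) stand between the lower-ratio and the intronic regions in their nearness to starts and promoter-class regions, and 29.4% of them had a protein-coding nearest gene, against 58.3% of the intronic set.

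These measures were followed across the ratio, in bands that do not stop at the limit. The median distance to a start was 29535 bp below a ratio of 0.10 (72 regions) and 33426 bp from 0.10 to 0.25 (311 regions). Within the members it was 24980 bp from 0.25 to 0.35 (221 members), 22488 bp from 0.35 to 0.50 (232), 17538 bp from 0.50 to 0.75 (221) and 20284 bp at 0.75 or more (109). The share over 50 kb from a start was 29.2%, 31.2%, 27.1%, 16.4%, 14.9% and 12.8% over the 6 bands, so in this measure the members from 0.25 to 0.35 lay near the regions below the limit.
A promoter-class region lay within 50 kb of 5.56% and 8.68% of regions in the bands below the limit, and of 11.3%, 15.1%, 20.4% and 16.5% in the bands of members. Cluster II regions gave 6.94%, 9.32%, 16.3%, 17.7%, 20.8% and 12.8%. In both measures the highest band was below the one before it, with wide intervals (10.1 to 24.8 for promoter-class and 7.20 to 20.6 for cluster II regions). Median MACS tags were 56, 56, 51, 47, 44 and 39 over the 6 bands, a fall partly fixed by the bands themselves, which have MACS tags as divisor, and median widths were 499, 516, 523, 494, 478 and 439 bp. The part of peak strength and width in these trends was not tested.

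**Figure D3:**
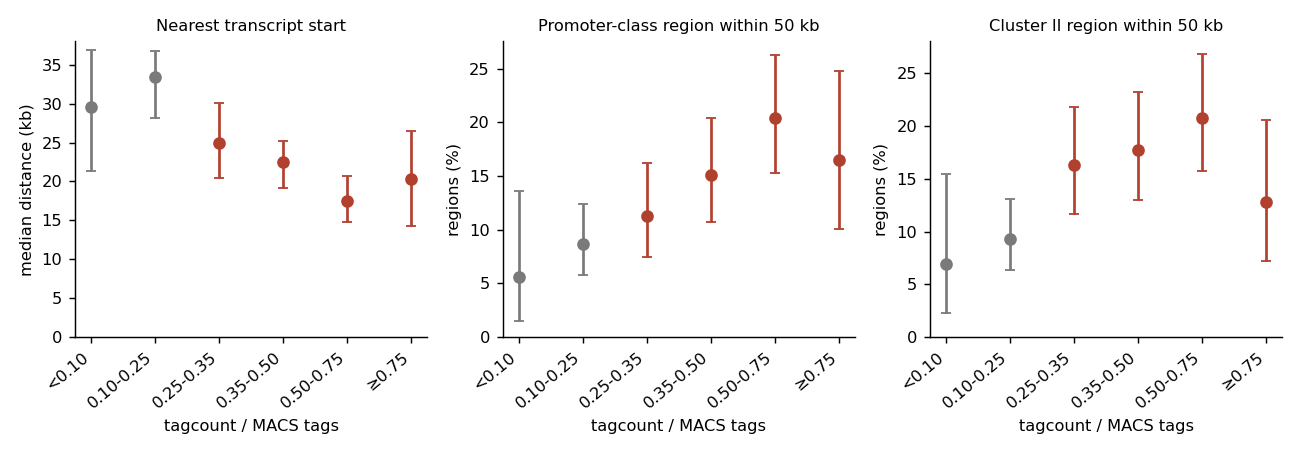
Points give, for 6 bands of tagcount divided by MACS tags, the median distance to a transcript start in kb and the percentages of regions with a promoter-class or a cluster II region within 50 kb, with 95% intervals. By their points, bands of members (0.25 and above, red) lie nearer to starts and neighbours than the bands below 0.25 (grey). In each measure the interval of the lowest band of members overlaps those of the bands below 0.25, so no step at the limit is shown. Among members the points move nearer up to the band from 0.50 to 0.75, and the highest band shows no further change in that direction.

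Most members had no protein-coding gene as nearest gene. Biotypes came from GENCODE 44 by transcript for 697 members and by name for 29, and 57 (7.28%) could not be matched. Of the members, 29.4% (26.2 to 32.7) were nearest to a protein-coding gene, 28.2% (25.1 to 31.5) to a long non-coding RNA gene, 23.2% (20.3 to 26.4) to a pseudogene and 11.9% (9.69 to 14.4) to a small RNA gene. Regions of lower ratio gave 27.2% (22.8 to 31.9), 35.8% (31.0 to 40.8), 18.5% (14.8 to 22.8) and 12.3%. The intronic regions differed, with 58.3% (55.1 to 61.3) nearest to a protein-coding gene and 7.87% (6.28 to 9.71) to a pseudogene. The part of the position class in this difference was not tested. Across the bands of members, the protein-coding share was 26.7%, 24.1%, 34.8% and 34.9%, and the long non-coding share was 32.6%, 32.3%, 23.5% and 20.2%.

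Small RNA neighbours included 10 microRNA genes with 12 members, without host genes and without MIR4454, whose nearest transcript is annotated as a long non-coding RNA. These members had 35 to 87 MACS tags and tagcounts of 13 to 42. MIR23A, of a microRNA cluster known for muscle and blood cell roles, had a member 10554 bp upstream (53 MACS tags, tagcount 30). MIR4472-2 had 3 members with 44, 44 and 49 MACS tags and tagcounts of 24, 22 and 13, on both sides of the gene. A member also lay 7936 bp from a start in MIR17HG, the host gene of the growth-promoting miR-17-92 cluster, with 57 MACS tags and a tagcount of 42. Names such as Y_RNA (10 members on 5 chromosomes) and snoU13 (4 members on 3) stand for many copies of a repeat-like gene, so each such name covers several loci.

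Of the 783 members, 2 had no nearest transcript and the others carried 644 gene names, with Y_RNA and snoU13 counted as 1 name each. Of these names, 540 occurred once, 84 occurred 2 times and 20 occurred 3 or more times. Neighbouring members within 50 kb were joined into groups, which gave 26 groups of 3 or more members with 93 members (11.9%), 86 pairs with 172 members (22%) and 518 members alone (66.2%). Within 50 kb of another member lay 33.8% of members (30.5 to 37.3), against 23.8% (19.6 to 28.3) of regions of lower ratio that had another of their own set. The lower-ratio set is smaller, which by itself makes such neighbours rarer. None of the 26 groups held a promoter-class region within its span, 5 held a cluster II region, and 10 were on chromosome 1. A span begins and ends at members, and promoter-class regions lay just outside some of them. Examples are chr1:27816701-27817276 beside the WASF2 group (from 27823295) and chr1:54953796-54954814 beside the AC099796.1 group (to 54942006). Of all members, 15.7% had a promoter-class region within 50 kb.

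The largest group in tags lay beside PODXL, which encodes podocalyxin, the sialomucin that carries the TRA-1-60 epitope of embryonal carcinoma and embryonic stem cells. Over 52.3 kb upstream of the gene (chr7:131270796-131323073), 6 members had, in genomic order, 74, 46, 127, 48, 117 and 133 MACS tags and tagcounts of 64, 32, 59, 28, 78 and 61. The first 3 were assigned to PODXL, at 28103, 49313 and 50142 bp upstream, and the other 3 to the pseudogene AC093106.7. Every one of the 6 had more MACS tags than tagcount tags, with ratios of 0.865, 0.696, 0.465, 0.583, 0.667 and 0.459. Only 2.94% of all members had a ratio of 1 or more, so this does not set the group apart. A pair of cluster II regions stood between the first and second members, with tagcounts of 70 and 253, the second of them 1881 bp wide. The promoter-class region of PODXL, 370 bp from the start and outside the group, had 60 MACS tags and a tagcount of 51. The members with 74, 127, 117 and 133 MACS tags thus exceeded the promoter-class region.

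**Figure D4:**
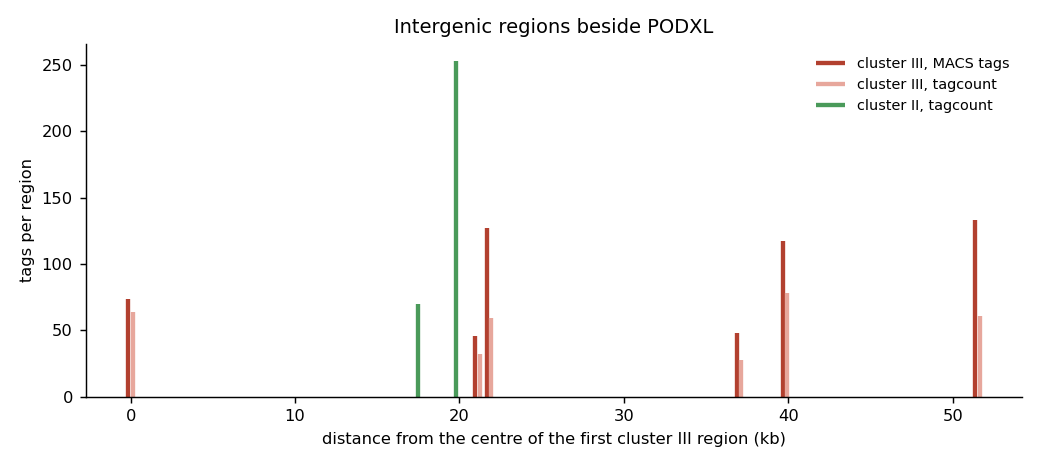
Vertical lines give MACS tags and tagcount of the 6 intergenic cluster III regions upstream of PODXL, and tagcount of the pair of intergenic cluster II regions among them, against the distance in kb from the first. The tallest line is that of the cluster II region at 19.8 kb (tagcount 253, 1881 bp wide), and the highest cluster III tagcount is 78. The highest MACS tags are 133, 127 and 117. Tagcount and MACS tags are different, unscaled counts and the regions differ in width, so line heights do not rank the regions by strength.

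The other group of 6 spanned 102 kb on chromosome 1 (chr1:209476472-209578292) around the long non-coding genes RP11-372M18.1, RP11-372M18.2 and MIR205HG, the host of the epithelial microRNA miR-205. Its members had 35, 58, 33, 36, 66 and 53 MACS tags and tagcounts of 14, 17, 11, 43, 21 and 14, and were weaker than those beside PODXL. The fourth alone had more tagcount tags than MACS tags. A cluster II region with a tagcount of 87 lay between the last 2 members. The 5 members around RPL35P9 on chromosome 13 had 32 to 77 MACS tags and tagcounts of 10 to 25, over 64.0 kb.

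Among protein-coding genes, SCARB1, the receptor for high-density lipoprotein, had 4 members 40312 to 104795 bp downstream of a start, with 34, 35, 35 and 96 MACS tags and tagcounts of 21, 18, 13 and 42. A pair of further intergenic SCARB1 regions, on either side of these, fell below the limit, with 124 and 45 MACS tags and tagcounts of 29 and 6, so neighbours of 1 gene lay on both sides of it. WASF2, an actin regulator of the WAVE complex, had 3 members 6873 to 14679 bp upstream with 38, 37 and 38 MACS tags and tagcounts of 30, 24 and 22, next to a cluster II promoter-class region with a tagcount of 53. ABHD16B, an abhydrolase family gene, had 3 members within 2.21 kb (35, 36 and 56 MACS tags, tagcounts 19, 33 and 40) and no other region. NKAIN1, a partner of the sodium-potassium ATPase, had 3 members with 51, 33 and 38 MACS tags and tagcounts of 25, 16 and 21, and 1 intronic region with 56 and 20.
The remaining groups of 3 to 4 members lay near non-coding or unmatched genes, apart from EDN2. On chromosome 1 they were named by RP11-329N22.1 and RP11-334L9.1 (4 members, 37 to 98 MACS tags), RNA5SP45 and EDN2, an endothelin (3 members, 39 to 129), AC099796.1 (3, 35 to 55), WI2-1896O14.1 (4, 42 to 85), RP11-2P2.1 (3, 42 to 69), RP11-61J19.2 and RP11-61J19.3 (3, 47 to 57), RP11-53A1.2 (3, 35 to 54) and RP4-799G3.1 and RP4-799G3.2 (4, 37 to 125). The EDN2 member itself had 129 MACS tags and a tagcount of 44. On other chromosomes they were named by RP11-672A2.7 and RP11-672A2.6, RP11-469N6.1, RP11-116D17.2, AC010745.4, a Y_RNA copy on chromosome 2 (3 members, 38 to 65 MACS tags), LINC00315 with LINC00316 and MTCO1P3, RP11-528A4.3 and RP11-528A4.2, AC226118.1 and AC147651.1, AC003090.1 and CTD-2227E11.1, SMARCE1P4 and RP11-527N22.1, and EIF4BP3 and AL160269.1. Among these, members ranged from 32 MACS tags in the RP11-116D17.2 group to 144 in the CTD-2227E11.1 group.

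The 20 gene lists of signalling, lineage and chromatin genes had members at a share near that of all genes. Of 596 listed genes, 15 were nearest to a member, 7 to an intergenic region of lower ratio and 33 to an intronic region of the comparison set, and 188 to some region of the 8819. The 15 were 7.98% (4.53 to 12.8) of the 188, and over all genes 644 of 6697 named ones, or 9.62%, were nearest to a member. The 15 listed genes had 1 member each, and 8 lists had none, among them those of arginine methyltransferases (5 genes named in the files), histone H3 lysine 4 methylation (13), TGF-beta and BMP signalling (11) and cell cycle regulators (7). Lists of this size would hold about 1 gene or none at the share of all genes, so nothing is read from these counts.

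The retinoid list had 10 genes named in the files and 1 with a member. This was RXRA, the retinoid X receptor that pairs with retinoic acid receptors, with 51 MACS tags and a tagcount of 19 at 48393 bp downstream of a start (chr9:137346430-137347059), and it was the only region of any cluster assigned to RXRA. HOXB1, a hindbrain HOX gene known as a direct retinoic acid target, had a member 8656 bp downstream with 33 and 10. A pair of non-member HOXB1 regions, 3569 bp downstream of a start and at a start, had 53 and 62 MACS tags and tagcounts of 14 and 13.

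LIN28A, the pluripotency factor that blocks let-7 maturation, had a weak member 6909 bp upstream with 36 MACS tags and a tagcount of 15. The 5 other LIN28A regions belonged to clusters I and II, and the 4 of cluster II had tagcounts of 45, 111, 71 and 38. Among lineage genes, PAX3 of the neural tube and neural crest had 34 and 11, TBX5 60 and 15, and GATA4, an endoderm and heart factor, 38 and 16. Among signalling genes, the FGF receptor FGFR3 had 93 MACS tags and a tagcount of 54, the Hedgehog receptor PTCH1 78 and 34, LFNG, a glycosyltransferase that modifies Notch, 77 and 45, and the WNT receptor FZD2 60 and 37. RYBP, a Polycomb repressive complex 1 component, had 93 and 36. The members of FGFR3, FZD2, LFNG and RYBP, like that of RXRA, were the only regions of any cluster assigned to those genes. The remaining listed genes were the cytoskeletal actin gene ACTB (81 and 50) and the collagen gene COL1A2 (33 and 16), and ACTB also had 5 promoter-class regions, 4 of them in cluster II.

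FGF3 combined several kinds of region. Its member had 167 MACS tags, more than the promoter-class region at its start (70 MACS tags, tagcount 30), an enhancer-class region at the start (64 and 10) and an intronic region (48 and 21). A cluster II intergenic region 19350 bp downstream of the start had a tagcount of 106, above the 42 of the member.

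Chromosomes differed in how many of their intergenic regions reached the limit. Chromosome 1 held 194 members, 24.8% of all (21.8 to 28.0), against 12.3% (9.16 to 16.0) of the regions of lower ratio and 25% (22.3 to 27.8) of the intronic regions. Of its 241 intergenic enhancer-class cluster III regions, 80.5% (74.9 to 85.3) were members. High shares were also seen on chromosome 21 (77.8%, 28 of 36), the long arm of chromosome 12 (75.9%, 41 of 54), chromosome 16 (75.4%, 43 of 57) and chromosome 2 (75.2%, 85 of 113). Low shares were seen on chromosome 6 (31.4%, 16.9 to 49.3, 11 of 35), chromosome 5 (36.7%, 11 of 30), chromosome 8 (41.4%, 28.6 to 55.1, 24 of 58) and chromosome 10 (43.8%, 21 of 48). None of the 3 regions on chromosome 18 was a member.
The intronic regions were set beside them chromosome by chromosome. Of the intronic regions 84.2% had a ratio of 0.25 or more on chromosome 1, 41.7% on chromosome 5 and 38.6% on chromosome 10. Chromosome 8 was lower for intergenic regions (41.4%) than for intronic ones (67.3%, 53.3 to 79.3), with overlapping intervals. Over the 17 chromosomes with 20 or more regions of each kind the shares had a Pearson correlation of 0.731 and a Spearman correlation of 0.657, given as a description, since both kinds share the libraries and the copy number of their chromosome. DNA copy number was not measured in the files, and its part in these shares was not tested. Without chromosome 1, members still had a median distance to a start of 21531 bp (19393 to 23734), against 33145 bp (29147 to 36068) for regions of lower ratio, and a promoter-class region within 50 kb of 12.4% (9.84 to 15.3), against 7.44% (4.87 to 10.8). There, a cluster II region lay within 50 kb of 15.4% (12.6 to 18.6) of members and 9.52% (6.61 to 13.2) of regions of lower ratio, and another region of the own set within 50 kb of 29.9% (26.2 to 33.8) and 24.4% (19.9 to 29.4), so that these 3 pairs of intervals overlapped. The median distance to a promoter-class region was 236308 bp for members and 458024 bp for regions of lower ratio there.

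**Figure D5:**
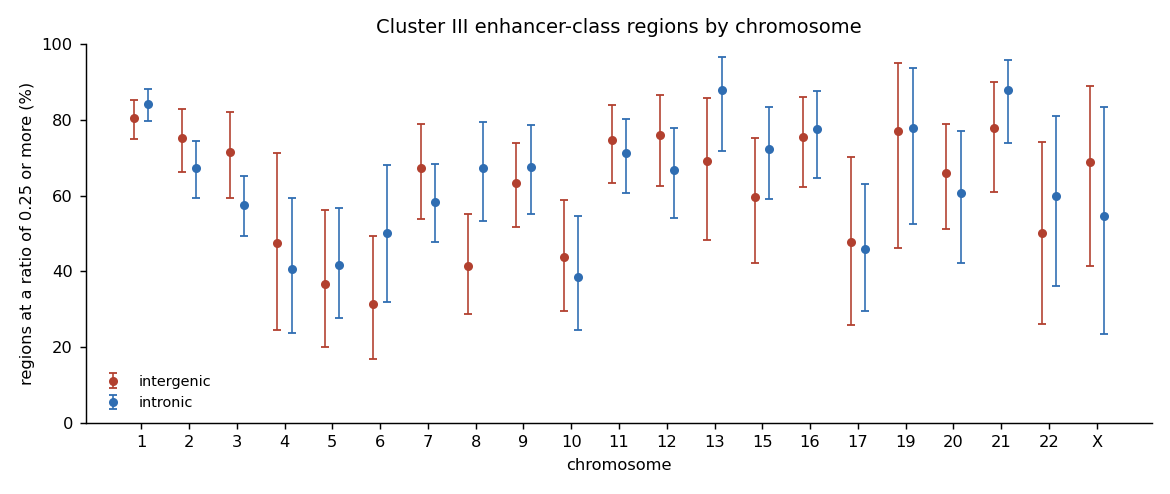
Points give, for each chromosome with 10 or more intergenic regions, the percentage of enhancer-class cluster III regions with a ratio of 0.25 or more, with exact 95% intervals, for intergenic regions (red, left) and intronic regions (blue, right). Chromosome 12 is its long arm. Intergenic shares run from 31.4% on chromosome 6 to 80.5% on chromosome 1.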

How the data were processed

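Chromatin immunoprecipitation sequencing of H3R2me2a in control NT2/D1 cells was described by 5 region lists. Per the submitters' processing notes, bcl2fastq, Bowtie2, MACS 1.4 and deepTools were used with hg19 (GRCh37), with no role or order given. The authors deposited whole-number counts of tags per region (MACS tags and tagcount), and, per the file headers, lengths, summits and distances to starts in base pairs and a class of genomic position (1250 bp counting as a start, 5000 bp as upstream). No source used here gives the peak control, the cluster and class criteria or the depth. The short arm left out by the rule of selection is all of chromosome 12 below 36 Mb.

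Lists were joined on chromosome, start and stop. Distances between regions were taken from centre to centre. Members and the 20 gene lists were chosen with earlier results of these data known. Named regions were the 15 members with most MACS tags, the 10 with highest tagcount, the 10 with highest ratio, the 5 widest, nearest, farthest, just inside and just outside the limit, genes with 3 or more members, groups of 3 or more, and up to 4 genes per gene list, of which 1 is not reported here. The other genes named were chosen after their values were seen (CGN, RAD23B and EIF1B by the rule given with their sequences). Shares carry Clopper-Pearson intervals, medians order-statistic intervals, counts exact Poisson intervals and ratios exact conditional intervals, computed with scipy 1.17.1. The intervals of medians and of ratios, and the distances between regions, were tested on simulated data. Alternatives were other ratio limits, 10 added tags, a minimum of MACS tags, other windows and chromosomes left out.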

Additional observations from a re-analysis of the deposited data

How the results depend on the processing

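The 10 summary values of the members were recomputed under 10 settings, which gave 82 alternative values. Of these, 68 stayed within the main interval (counts within 1.5 times) and 14 moved. The 68 include every value of a pair of settings that could hardly move anything. The minimum of 5 kb from a start left out only the 2 members without a transcript. The limit to numbered chromosomes, X and Y left out only the 5 members on unplaced contigs. The 68 therefore overstate how stable the values are. At a ratio of 0.35 or more, 15.1% of regions lay over 50 kb from a start and 28.1% within 50 kb of another. With 10 tags added to both counts before the ratio, the median distance to a start was 23734 bp, 22.2% lay over 50 kb from one, and the median distance to a promoter-class region was 244139.5 bp. With MACS tags at or above the cluster III median, 327 members were left, with a median width of 606 bp and 19.9% within 50 kb of another member. A 20 kb window gave 24.9% within reach of another member and 8.56% of a cluster II region, and a 100 kb window 40.7% and 28.5%, as wider windows must. Leaving out chromosome 1, a setting chosen after seeing the data, gave a median distance to a promoter-class region of 236308 bp and 29.9% within 50 kb of another member. Stricter limits left fewer regions that could be neighbours. The part of this in the fall in neighbours was not tested, nor was the cause of the other moves. The settings of over 5 kb and of numbered chromosomes were not applied to the number of members. No paired analysis was possible because each condition had 1 library. Counts of 8 to 30 tags leave single ratios uncertain, and no value has a replicate check.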
